A study of Mus musculus with 22 samples.

Results

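The genes described here are the mouse chemokines and the receptors that bind them. They are the protein-coding genes whose symbol joins Ccl, Cxcl, Ccr, Cxcr or Ackr to a number and at most 1 letter, together with Cx3cl1, Cx3cr1, Xcl1 and Xcr1. Described here are 65 gene rows with 60 symbols among the 55487 genes of each count table. Of these, 44 were ligands, 17 were signalling receptors and 4 were atypical receptors. The rule reads symbols and uses no measured value, but it was chosen with earlier results of these data known.

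Chemokines are small secreted proteins that direct the movement of leukocytes by binding G protein-coupled receptors on the moving cell. Several ligands share a receptor and several receptors share a ligand, whereas the atypical receptors bind chemokines and clear or transport them without the usual G protein signal. In sensory ganglia, chemokines are made by neurons, satellite glia, fibroblasts, vessel cells and resident macrophages, and CCL2 with CCR2 and fractalkine with CX3CR1 are pairs studied in pain.

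The study asked what periostin (POSTN), a secreted protein of the extracellular matrix, does in sensory ganglia in psoriasis. Dorsal root ganglia (DRG), which hold the cell bodies of sensory neurons, were taken from mice after 5 days of imiquimod (IMQ), a Toll-like receptor agonist that causes psoriasis-like skin inflammation, or of vehicle. DRG neurons were also cultured for 72 h with recombinant POSTN (rPOSTN) or without it. RNA was sequenced in 22 libraries of 8 groups, and the ganglia and the cultures of each genotype stand in a count table each.

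The ganglion groups were WT with IMQ (n = 2), WT with vehicle (n = 3), Postn knock out (KO) with IMQ (n = 2) and KO with vehicle (n = 3). The culture groups were WT with rPOSTN, WT control, KO with rPOSTN and KO control (n = 3 each). The labels give no allele, age, sex or dose, and they do not say whether replicates were separate animals, so the p-values measure the spread between these samples. Levels are given as counts per 1000000 counts (CPM) on library sizes scaled by the trimmed mean of M values (TMM). A gene was called at a Benjamini-Hochberg adjusted p below 0.05 in edgeR's quasi-likelihood test, adjusted over all genes tested in a comparison.

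Total counts per library ran from 16666489 to 24118303. Postn itself was at 3.39 to 7.42 CPM in the 5 KO ganglia, against 20.9 to 49.7 CPM in the 5 WT ganglia, and at 69.9 to 449 CPM in KO cultures, against 684 to 1011 CPM in WT cultures. WT IMQ ganglion 2 had 141 CPM over 4 Y-linked genes and 0.178 CPM of Xist, and the other ganglia had 190 to 239 CPM of Xist. The WT cultures numbered 1 and 2 had Y-linked counts and nearly no Xist, those numbered 3 had the reverse, and all KO cultures had both. KO vehicle ganglion 1 stood apart in neutrophil and erythroid genes, whose sums were 336 and 464 CPM there and at most 55.2 and 80.9 CPM in the other KO vehicle ganglia. Both KO cultures numbered 3 stood apart in fibroblast genes, which summed to 1214 and 1486 CPM, against 591 to 710 CPM in the other KO cultures. The 11 sensory neuron markers summed to 12280 to 14346 CPM in ganglia and 5560 to 7143 CPM in cultures, with none of the markers at 0 in any group, and the cultures also held fibroblast and macrophage genes.

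Of the 65 rows, 31 reached a mean of 1 CPM in at least 1 group, namely 24 ligands and 7 receptors, and 18 of them reached 5 CPM. A further 22 were counted but stayed under 1 CPM, and 12 rows of 7 symbols had no count in any library. Those 7 symbols were Ccl19, Ccl21a, Ccl21b, Ccl21c, Ccl27, Ccl27b and Cxcl15. Most of them belong to groups of near-identical copies, among which the authors' counting may not have been able to place reads, so these zeros are not evidence of absence. A count of 0 allows up to 0.124 to 0.18 CPM in a library, by counting error alone. The symbols Ccl27a and Ccl27 differ, and Ccl27a had counts in every library.

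Levels of different genes were compared per kilobase of exon. In WT vehicle ganglia the order was led by Ackr1, a chemokine-binding protein of venular endothelium and red cells, at 57.6 ± 11.8 CPM per kb (SD, n = 3). Ccl11 (eotaxin), a ligand of eosinophils, followed at 19.4 ± 5.38 CPM per kb and Ccl27a, known as a skin T cell chemokine, at 8.70 ± 3.03 CPM per kb. Cxcr4, Ccl2, Cxcl12 and Ackr3 came next at 4.54 ± 0.487, 4.39 ± 1.37, 3.78 ± 0.798 and 3.64 ± 0.709 CPM per kb, and neighbours among these 4 did not differ beyond their SDs. Ackr1 also led in the other 7 groups, but in KO rPOSTN and KO control cultures it was not clear of the next gene by their SDs. Its level is uncertain, because 361 of its 1405 annotated exon bases (25.7%) lie on the same strand as exons of the neuronal adhesion gene Cadm3, which was at 321 to 515 CPM in the ganglia.

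In WT control cultures Ackr1 stood at 47.6 ± 3.27 and Ccl11 at 33.1 ± 1.55 CPM per kb (SD, n = 3). Ccl2, a monocyte attractant, and Cxcl12, the ligand of Cxcr4 and Ackr3, followed at 28.2 ± 2.91 and 27.4 ± 2.70 CPM per kb, which did not differ beyond their SDs. Ccl7, a second monocyte attractant, was at 21.9 ± 1.43 CPM per kb and lay clear of Cxcl14 at 9.68 ± 2.77 CPM per kb. In CPM, the signalling receptors together made up 7.97 ± 1.13 in WT rPOSTN cultures and 7.42 ± 0.765 in WT control cultures (n = 3 each), against 58.8 ± 3.50 in WT IMQ ganglia (n = 2) and 24.6 ± 2.78 in WT vehicle ganglia (n = 3).

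**Figure D1:**
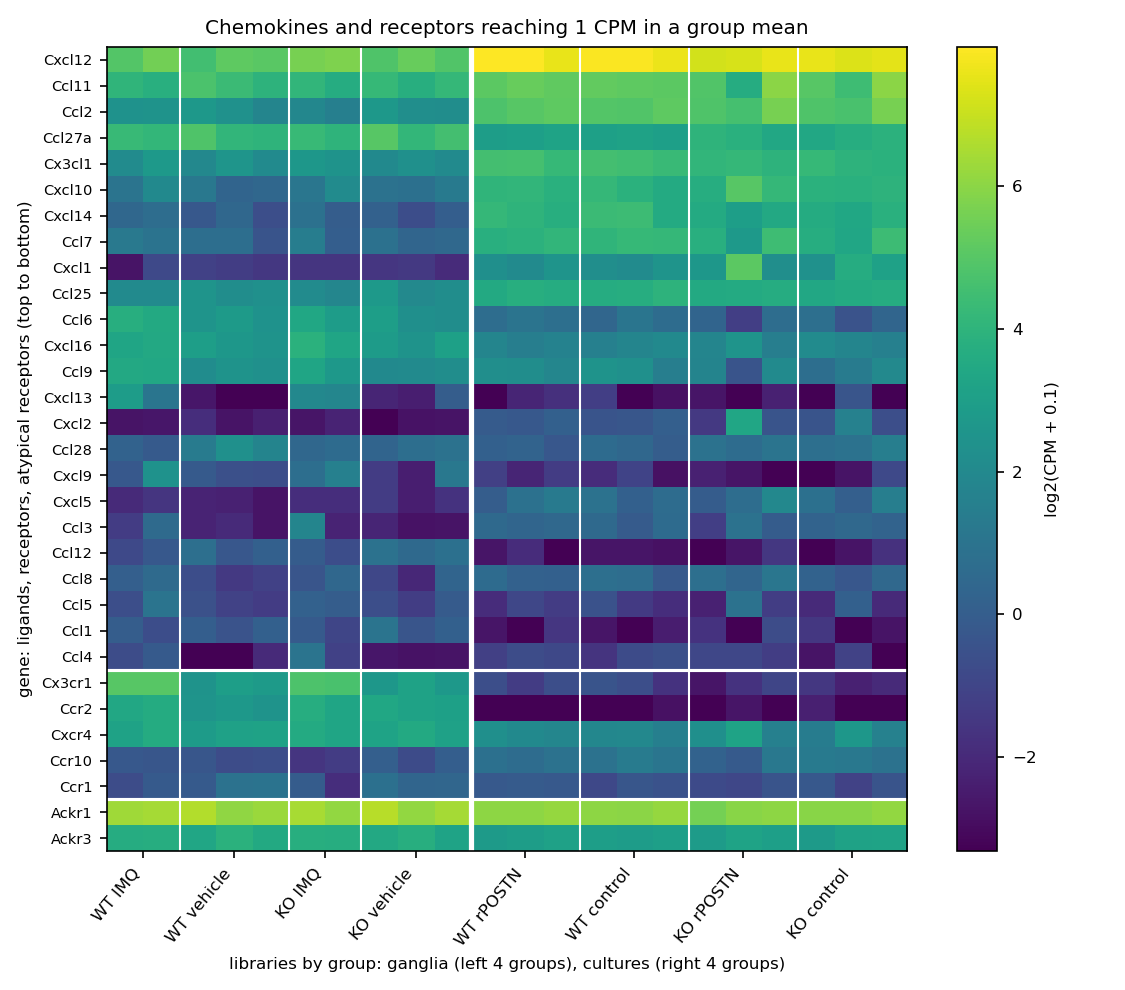
Level of the 31 chemokine and receptor genes that reached 1 CPM in a group mean, as log2(CPM + 0.1), with 1 column per library and groups separated by white lines. Cx3cr1 and Ccr2 are lighter (higher) in ganglia than in the 12 cultures, while Cxcl12, Ccl2, Ccl7 and Cxcl14 are lighter in cultures.

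The first comparison, of treated with vehicle ganglia in WT mice, asks which chemokine genes change in the ganglion when the skin is inflamed. The monocyte and macrophage receptors Cx3cr1 and Ccr2 rose. Among ligands, Cxcl13 and Ccl9 rose and Ccl28 fell. Because these are bulk libraries, more cells of a type and more RNA per cell cannot be told apart, nor fewer cells from less RNA per cell. These 5 calls came from 32 members tested (21 ligands and 11 receptors), and 1.3% of the 17197 genes tested were called, 1.12% as higher and 0.18% as lower. At an unadjusted p under 0.05 there were 11 members, and 7.27% of all genes. In 14 members every treated library was above every vehicle library and in 3 below, where 11.4% and 10.1% of genes were. Among these, Cxcl14 (above) and Ccr1 (below) overlapped without TMM. The median log2 fold change was 0.55 over the tested members and -0.01 over all genes. Of the 32, 7 passed the filter on low counts in fewer than 2 of the vehicle libraries (Ackr2, Ccl3, Ccl4, Ccl8, Cxcl13, Cxcr3 and Cxcr6), so the median and the count cannot stand for the whole family.

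Cxcl13 (ENSMUSG00000023078) encodes the attractant of B cells that binds Cxcr5. It had 7.36 and 1.99 CPM in WT IMQ ganglia, against 0.0591, 0 and 0 CPM in WT vehicle ganglia. Both treated libraries lay above all 3 vehicle libraries, but they differed widely from each other. The counts were 179 over the 2 treated and 1 over the 3 vehicle libraries, a ratio of 273 per total count (95% counting interval 48.3 to 10824), with an edgeR adjusted p = 0.0119. In KO ganglia it had 3.71 and 3.55 CPM with IMQ, against 0.121, 0.0904 and 0.895 CPM with vehicle, again with no overlap. The KO change was 3.28 ± 0.76 on the log2 scale and was not called (edgeR adjusted p = 0.11). Cxcr5, its receptor, had 22 counts in all libraries, and the 6 tested genes of the B cell marker list had 0 calls in either genotype.

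The window before the start of Cxcl13 is shown because the gene had the largest change among the ligands in WT. It is 250 bases from RefSeq on GRCm38.p6, chr5:95956689-95956938 on the plus strand, and capitals mark matches to 2 of 5 motifs searched on both strands.
Cxcl13: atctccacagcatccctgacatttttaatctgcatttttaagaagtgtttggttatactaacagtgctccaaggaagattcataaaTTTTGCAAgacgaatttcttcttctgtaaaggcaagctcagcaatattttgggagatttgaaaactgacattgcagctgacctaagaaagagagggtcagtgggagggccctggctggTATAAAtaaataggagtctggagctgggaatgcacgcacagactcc
The first capitals match TTGCNNAA, a C/EBP motif, on the reverse strand, and the second match TATAAA, the TATA box, 46 bases before the start. TTGCNNAA was found in 9.56% and TATAAA in 12.4% of 32851 promoter windows of this length. The other 3 motifs were not found there: GAGGAA, a PU box; GAAA repeated after a gap of 2 bases, an interferon-stimulated response element; and GGGA followed after a gap of 2 bases by TTCC, an NF-kB motif.

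Ccl9 (ENSMUSG00000019122), a ligand of Ccr1 made by myeloid cells, had 11 and 10.7 CPM in WT IMQ ganglia, against 4.43, 5.39 and 5.00 CPM in WT vehicle ganglia. The groups did not overlap, and the change was 1.13 ± 0.19 (edgeR adjusted p = 0.0193). In KO ganglia Ccl9 had 9.79 and 6.27 CPM with IMQ, against 4.0, 4.07 and 4.58 CPM with vehicle. The KO change of 0.93 ± 0.20 missed the threshold (edgeR adjusted p = 0.0729). Ccl6, another ligand of Ccr1, had 13.5 and 11.5 CPM in WT IMQ ganglia, against 5.67, 6.97 and 5.35 CPM in WT vehicle ganglia, with no overlap. Its change of 1.06 ± 0.25 was not called (edgeR adjusted p = 0.107).

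Ccl28 (ENSMUSG00000074715), a mucosal ligand of Ccr10 and Ccr3, was the member that fell. It had 1.07 and 0.819 CPM in WT IMQ ganglia, against 2.48, 4.98 and 3.30 CPM in WT vehicle ganglia. The change was -1.92 ± 0.35 (edgeR adjusted p = 0.0280). In KO ganglia it had 1.27 and 1.42 CPM with IMQ, against 1.15, 1.58 and 1.79 CPM with vehicle, and these overlapped. The WT vehicle libraries were thus the high ones, and the other 7 ganglia lay between 0.819 and 1.79 CPM.

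The inflammatory ligands Ccl3 and Ccl4, which attract monocytes and T cells, were rarely counted. Ccl4 had 24 counts over the 2 WT IMQ libraries and 3 over the 3 WT vehicle libraries, a ratio of 12.2 (95% counting interval 3.70 to 63.2). In KO ganglia the counts were 39 with IMQ and 3 with vehicle, a ratio of 21.9 (6.97 to 111). Of the 39 counts of Ccl4, KO IMQ 1 held 33 and KO IMQ 2 held 6, and the interval leaves out that spread between libraries. Ccl3 had 0.304 and 1.4 CPM in WT IMQ ganglia, against 0.118, 0.157 and 0.05 CPM in WT vehicle ganglia. In KO it had 3.42 and 0.118 CPM with IMQ, against 0.121, 0.0452 and 0.0526 CPM with vehicle, so that 1 KO treated library carried nearly all of its counts. Neither gene was called in either genotype.

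Ligands of the interferon-induced CXCR3 group were uneven. Cxcl9 had 0.761 and 5.27 CPM in WT IMQ ganglia, against 0.827, 0.576 and 0.550 CPM in WT vehicle ganglia. Cxcl10 had 1.93 and 3.98 CPM, against 2.19, 1.15 and 1.25 CPM. In both genes the WT treated libraries overlapped the vehicle ones, and the higher of them was the library with Y-linked counts. In KO ganglia Cxcl9 had 1.56 and 2.90 CPM with IMQ, against 0.303, 0.0904 and 2.16 CPM with vehicle. Cxcl10 had 2.03 and 4.20 CPM there, against 1.82, 1.67 and 2.37 CPM. The higher KO treated library was KO IMQ 2, which had 0.18 CPM of Y-linked genes. Any part of sex in these levels was not tested. Cxcl16, a membrane-bound ligand of Cxcr6, had 9.74 and 11.1 CPM in WT IMQ ganglia, against 7.98, 6.18 and 5.40 CPM in WT vehicle ganglia, with no overlap and an edgeR adjusted p of 0.436. Ccl5 had 0.558 and 1.93 CPM, against 0.591, 0.367 and 0.3 CPM, and the groups overlapped.

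Among more abundant ligands, Cxcl12, a homing signal that stromal cells make, had 30.7 and 47.1 CPM in WT IMQ ganglia, against 23.5, 35.6 and 33.8 CPM in WT vehicle ganglia. In KO ganglia it had 49.8 and 54.2 CPM with IMQ, against 28.7, 40.2 and 29.2 CPM with vehicle, a change of 0.67 ± 0.23 (edgeR adjusted p = 0.440). Ccl11 had 16.4 and 13.6 CPM in WT IMQ ganglia, against 27.1, 20.3 and 15.6 CPM in WT vehicle ganglia. Ccl2 had 5.28 and 5.50 CPM, against 6.44, 5.19 and 3.35 CPM, so the attractant that binds Ccr2 overlapped between groups. Cx3cl1 (fractalkine), the ligand of Cx3cr1, had 4.26 and 6.61 CPM in WT IMQ ganglia, against 3.78, 5.71 and 4.05 CPM in WT vehicle ganglia, and also overlapped.

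The following ligands were not called. Ccl7 and Ccl8, which attract monocytes, had 2.23 and 1.87 CPM and 0.964 and 1.4 CPM in WT IMQ ganglia, against 1.6, 1.57 and 0.65 CPM and 0.532, 0.262 and 0.35 CPM in WT vehicle ganglia. Ccl12, another ligand of Ccr2, had 0.457 and 0.761 CPM in WT IMQ ganglia, against 1.65, 0.733 and 1.0 CPM in WT vehicle ganglia. In KO it had 0.869 and 0.532 CPM with IMQ, against 1.82, 1.36 and 1.68 CPM with vehicle. The treated libraries lay above the vehicle ones for Ccl7 and Ccl8 in WT and below them for Ccl12 in KO. Ccl1, a T cell attractant, had 0.914 and 0.527 CPM in WT IMQ ganglia, against 0.946, 0.629 and 1.0 CPM in WT vehicle ganglia, and these overlapped. In KO it had 0.811 and 0.414 CPM with IMQ, against 1.94, 0.678 and 1.00 CPM with vehicle, again with overlap. Ccl25, a chemokine of thymus and intestine, had 4.11 and 4.16 CPM in WT IMQ ganglia, against 5.61, 4.45 and 5.0 CPM in WT vehicle ganglia. Ccl27a had 19.3 and 17.4 CPM, against 29, 17.2 and 15.8 CPM, and Cxcl14 1.27 and 1.52 CPM, against 0.768, 1.26 and 0.55 CPM. In WT both treated libraries were below every vehicle library for Ccl25, whereas Ccl27a overlapped. For Cxcl14 both were above every vehicle library, but WT IMQ 1 had 25 counts and WT vehicle 2 had 24. Without TMM these libraries had 1.27 and 1.28 CPM, so the groups then overlapped.

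Cx3cr1 (ENSMUSG00000052336), the fractalkine receptor of resident macrophages and patrolling monocytes, had 32.6 and 32.7 CPM in WT IMQ ganglia, against 5.50, 7.80 and 6.95 CPM in WT vehicle ganglia. In KO ganglia it had 27.8 and 25.9 CPM with IMQ, against 6.07, 8.99 and 6.32 CPM with vehicle. Every treated library was above every vehicle library. The change was 2.27 ± 0.19 in WT (edgeR adjusted p = 0.000402) and 1.91 ± 0.19 in KO (edgeR adjusted p = 0.00123). Per kilobase, Cx3cr1 reached 7.25 ± 0.0218 CPM per kb in WT IMQ ganglia, where it ranked 4 among the members.

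The window before the start of Cx3cr1 is shown because this receptor was, per kilobase, the highest of the called members in WT IMQ ganglia. It lies at chr9:120068297-120068546 on the minus strand (RefSeq, GRCm38.p6). No letters are in capitals, because none of the 5 motifs was found in it.
Cx3cr1: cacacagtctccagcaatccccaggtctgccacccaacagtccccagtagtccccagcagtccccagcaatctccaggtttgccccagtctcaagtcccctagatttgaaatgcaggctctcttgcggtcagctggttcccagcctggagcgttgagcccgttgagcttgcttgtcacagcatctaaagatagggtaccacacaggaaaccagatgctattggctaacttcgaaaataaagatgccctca

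Ccr2 (ENSMUSG00000049103), the receptor by which inflammatory monocytes follow Ccl2 and Ccl7, had 10.9 and 12.1 CPM in WT IMQ ganglia, against 5.56, 6.34 and 5.40 CPM in WT vehicle ganglia. The groups did not overlap, and the change was 0.99 ± 0.17 (edgeR adjusted p = 0.0187). In KO ganglia Ccr2 had 12.9 and 9.76 CPM with IMQ, against 10.3, 8.90 and 8.31 CPM with vehicle, and these overlapped. The KO change was 0.31 ± 0.16 (edgeR adjusted p = 0.632).

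The following receptors were not called. Cxcr4, the receptor of Cxcl12 on leukocytes and progenitor cells, had 8.88 and 12 CPM in WT IMQ ganglia, against 7.21, 8.59 and 8.85 CPM in WT vehicle ganglia. Ccr1, the receptor of Ccl3, Ccl6 and Ccl9, had 0.507 and 0.819 CPM, against 0.827, 1.78 and 1.85 CPM. Every treated value of Ccr1 was thus under every vehicle value, but WT IMQ 2 and WT vehicle 1 had 14 counts each. Without TMM these libraries had 0.832 and 0.808 CPM, so the groups then overlapped. Its ligand Ccl9 was higher in WT IMQ ganglia. Cxcr2, which guides neutrophils, averaged 0.921 ± 0.061 CPM in WT IMQ ganglia (n = 2) and 0.682 ± 0.287 CPM in WT vehicle ganglia (n = 3). The atypical receptor Ackr3, which removes Cxcl12, had 12.6 and 13.0 CPM in WT IMQ ganglia, against 10.2, 14.8 and 11.5 CPM in WT vehicle ganglia. Ackr1 had 82.1 and 85.6 CPM, against 99.5, 67.4 and 76.0 CPM, and both atypical receptors overlapped.

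**Figure D2:**
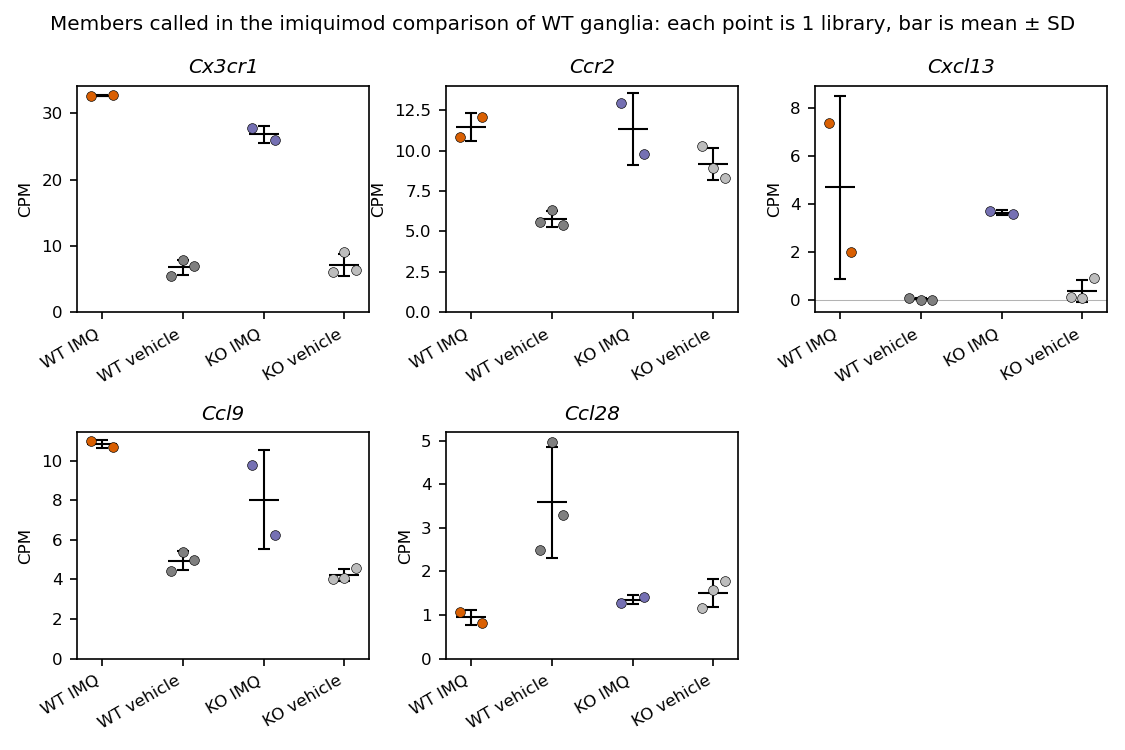
CPM of the 5 members called in WT ganglia, with 1 point per library and bars for the mean ± SD in the groups WT IMQ (n = 2), WT vehicle (n = 3), KO IMQ (n = 2) and KO vehicle (n = 3). Cx3cr1, Cxcl13 and Ccl9 separate IMQ from vehicle in both genotypes, whereas for Ccr2 and Ccl28 the WT groups stand apart and the KO groups overlap.

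The 4 calls in WT other than Cx3cr1 were each lost without certain single libraries. Ccr2 had an edgeR adjusted p of 0.0945 and 0.197 without WT IMQ 1 and 2, and of 0.0640, 0.0518 and 0.0976 without WT vehicle 1, 2 and 3. Ccl9 had 0.161 and 0.158 without WT IMQ 1 and 2, and 0.0664, 0.0641 and 0.0928 without WT vehicle 1, 2 and 3. Ccl28 had 0.187 and 0.317 without WT IMQ 1 and 2, and 0.0720 and 0.0808 without WT vehicle 2 and 3. Cxcl13 had 0.0895 without WT IMQ 1, and 0.0681 and 0.0744 without WT vehicle 2 and 3. Cx3cr1 stayed called in both genotypes when any 1 library was left out. Without WT IMQ 2, the library with Y-linked counts, Cxcl13 also stayed called (edgeR adjusted p = 0.0138).

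IMQ against vehicle in KO ganglia called 1 of the 32 members, Cx3cr1, where 1.1% of the 17197 genes tested were called, 1.09% as higher and 0.0174% as lower. At an unadjusted p under 0.05 there were 12 members and 8.39% of all genes, and the median log2 fold change was 0.39 over the members and -0.01 over all genes. The 7 members named above that passed the filter in fewer than 2 vehicle libraries are among these 32 too. This median and the counts of members here therefore cannot stand for the whole family. Treated libraries were all above the vehicle ones in 8 members and all below in 4, where 12.3% and 11.1% of genes were. The 4 were Ccr10, Ccr1, Ccl2 and Ccl12, of which Ccl2 had 3.59 and 2.84 CPM in KO IMQ ganglia, against 6.37, 4.65 and 4.47 CPM in KO vehicle ganglia (edgeR adjusted p = 0.567). DESeq2 called 5 members in KO, adding Cxcl13, Ccl9, Ccl3 and Ccl4 with adjusted p-values of 0.00511, 0.0116, 0.0208 and 0.0212. Without KO IMQ 2, edgeR's quasi-likelihood test called 4 members, with Ccl3, Ccl4 and Ccl9 beside Cx3cr1 (adjusted p = 0.0186, 0.0323 and 0.0256). These counts were not set against the share of all genes called in the same settings, so they do not single out the members. Without KO vehicle 1, the library high in neutrophil and erythroid genes, Cx3cr1 remained the member called. Without KO vehicle 3, which held most of the vehicle counts of Cxcl13, that gene was called (edgeR adjusted p = 0.0403).

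**Figure D3:**
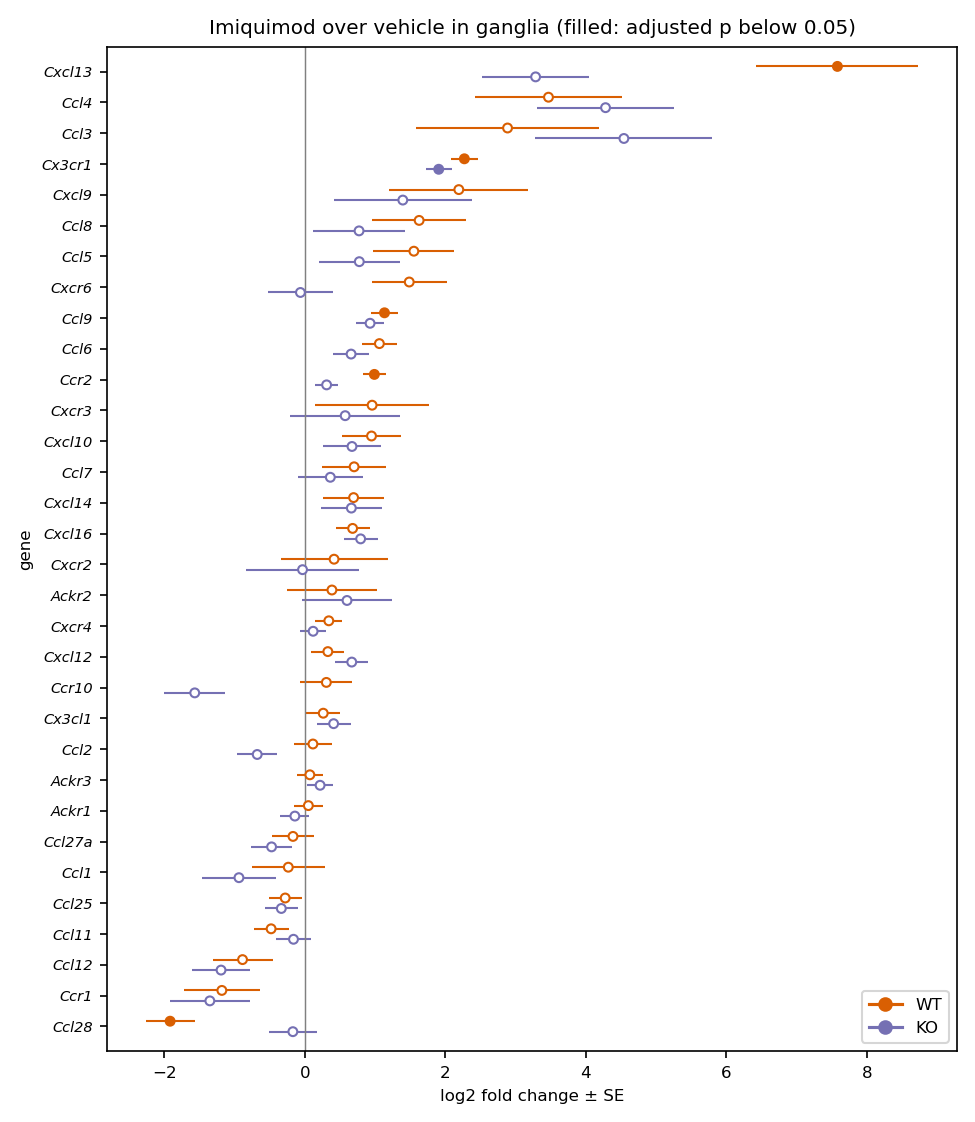
Fitted log2 fold change ± SE of IMQ over vehicle for the 32 members tested, WT above KO within each gene, filled where the adjusted p is below 0.05. Filled points in WT are Cxcl13, Cx3cr1, Ccl9, Ccr2 and Ccl28, and in KO Cx3cr1, and the fitted values of Cxcl13, Ccl3 and Ccl4 rest on 1 to 21 vehicle counts and are no bounds.

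Whether the response depended on Postn was tested as the difference of the IMQ effects, KO minus WT. No member was called, and 0 of 17197 genes were (0% of all). At an unadjusted p under 0.05 there were 4 members, with 364 genes (2.12%) in all, and DESeq2 called 0 members and 5 genes. The smallest p-values belonged to Ccl28 at 1.75 ± 0.49, Ccr10 at -1.87 ± 0.58 and Ccr2 at -0.68 ± 0.23, each with an edgeR adjusted p of 0.999. A p that misses the threshold does not show that the genotypes responded alike. Ccr10, a receptor of Ccl27 and Ccl28, had 0.232 and 0.296 CPM in KO IMQ ganglia, against 0.971, 0.497 and 0.947 CPM in KO vehicle ganglia, and 0.761 and 0.702 CPM in WT IMQ ganglia, against 0.709, 0.524 and 0.550 CPM in WT vehicle ganglia.

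KO against WT in vehicle ganglia had 0 of 32 members called, where 0.0116% of genes (2 genes) were. DESeq2 also called 0 members and called 31 genes. An unadjusted p under 0.05 was reached by 4 members and by 3.08% of all genes. KO libraries were all above WT ones in 3 members and all below in 1, where 3.02% and 3.89% of genes were. Ccr2 was at 10.3, 8.90 and 8.31 CPM in KO, against 5.56, 6.34 and 5.40 CPM in WT, with no overlap and a difference of 0.67 ± 0.15 (edgeR adjusted p = 0.714). Ccl28 was at 1.15, 1.58 and 1.79 CPM in KO, against 2.48, 4.98 and 3.30 CPM in WT, with a difference of -1.24 ± 0.28 (edgeR adjusted p = 0.714). Cxcr6, the receptor of Cxcl16 on T cells, had 28 counts in KO and 9 counts in WT, with a difference of 1.56 ± 0.48. This comparison and that of IMQ with vehicle in WT share the 3 WT vehicle libraries, which were low in Ccr2 and high in Ccl28.

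KO against WT in IMQ ganglia also had 0 of 32 members called, where 0.00581% of genes (1 gene) were. An unadjusted p under 0.05 was reached by 2 members and by 1.85% of all genes. DESeq2 called 0 members and 2 genes there. KO libraries were all above WT ones in 2 members and all below in 6, where 16.2% and 17% of genes were. Ccr10 was lower in both KO libraries at -1.45 ± 0.47, Ccl2 at -0.74 ± 0.31 and Ccl9 at -0.44 ± 0.21, each with an edgeR adjusted p of 0.997. Ccl2 had 3.59 and 2.84 CPM in KO IMQ ganglia, against 5.28 and 5.50 CPM in WT IMQ ganglia.

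Some genes of chemokine receptor signalling and cell migration also rose with IMQ. The lists here and in the paragraphs on cell types were chosen with earlier results of these data known. Their calls beside the shares of all genes are therefore descriptive and no independent support. Of 25 genes of chemokine receptor signalling and migration, 7 rose in WT IMQ ganglia and 6 in KO, with 0 lower, where 1.12% and 1.09% of all genes rose, and the list median was 0.26 in each genotype against -0.01 over all genes. Dock2, an activator of Rac in migrating leukocytes, changed by 1.33 ± 0.18 in WT and 1.36 ± 0.18 in KO (edgeR adjusted p = 0.00666 and 0.00704). Vav1 changed by 2.19 ± 0.26 and 1.81 ± 0.26, and Fpr1, a receptor of formyl peptides on phagocytes, by 3.47 ± 0.58 and 4.51 ± 0.64. Pik3cg, Pik3r5 and Was were the others called in both, and Rac2 in WT. Macrophage markers rose in the same libraries, as given below, and the part of such cells in these rises was not tested. Among 15 tested upstream regulators, Irf7 and Irf8 were called in both genotypes and Nfkbiz in KO, where 1.3% of all genes were called in WT and 1.1% in KO. Sdc1, a heparan sulphate carrier that binds chemokines, was the 1 of 11 processing genes called, in WT, at 0.64 ± 0.11, against the same 1.3% of all genes. Of 9 chemokine-related genes outside the symbol rule, such as Pf4, Ppbp and Ccrl2, 0 were called in either genotype.

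Macrophage markers were higher with IMQ in both genotypes, as was Cx3cr1, whereas Ccr2 was called in WT and overlapped in KO. Ccr1 was lower in every treated library in KO, and in WT only with TMM scaling. Of 16 macrophage markers, 11 rose in WT IMQ ganglia and 11 in KO, where 1.12% and 1.09% of all genes rose. The list medians were 1.75 and 1.24, against -0.01 over all genes in each genotype. Their summed level was 747 to 820 CPM in WT IMQ ganglia, against 236 to 293 CPM in WT vehicle ganglia, and 609 to 672 CPM in KO IMQ ganglia, against 233 to 316 CPM in KO vehicle ganglia. None of the 16 was at 0 in any ganglion group, and their part in the rise of Cx3cr1, Ccr2, Cxcl13 and Ccl9 was not tested. The T and NK cell markers had 1 of 5 called higher in WT (Cd8a) and 0 in KO. They summed to 6.45 to 7.38 CPM in WT IMQ ganglia, against 3.40 to 4.02 CPM in WT vehicle ganglia, and to 4.97 to 7.53 CPM in KO IMQ ganglia, against 3.34 to 6.42 CPM in KO vehicle ganglia.

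Other cell type lists also differed with IMQ. Adipocyte markers had 1 of 5 called higher in WT (Cfd) and 0 in KO, with medians of 2.30 and 1.93. They summed to 18.9 and 28.9 CPM in WT IMQ ganglia, against 4.75 to 9.58 CPM in WT vehicle ganglia, and to 19.8 and 13.4 CPM in KO IMQ ganglia, against 3.95 to 7.34 CPM in KO vehicle ganglia. Neutrophil markers had 0 of 9 called and summed to 151 and 115 CPM in WT IMQ ganglia, against 66.8 to 102 CPM in WT vehicle ganglia, and to 86.0 and 33.1 CPM in KO IMQ ganglia, against 29.3 to 336 CPM in KO vehicle ganglia. Adipocyte sums thus did not overlap in either genotype, and neutrophil sums did not in WT. In KO, fibroblast sums were 1477 to 1680 CPM with IMQ, against 1182 to 1385 CPM with vehicle. Endothelial sums were 119 to 127 CPM, against 79.8 to 113 CPM, and lymphatic endothelial sums 104 to 107 CPM, against 76.3 to 103 CPM. Sensory neuron sums were lower there, at 12478 to 12869 CPM, against 13091 to 14346 CPM. In WT the sums of each of these lists overlapped. Erythroid markers had 0 of 5 called, with medians of -1.82 in WT and -2.95 in KO. They summed to 30.3 to 45.0 CPM in WT IMQ ganglia, against 106 to 139 CPM in WT vehicle ganglia, and to 20.0 to 26.6 CPM in KO IMQ ganglia, against 39.8 to 464 CPM in KO vehicle ganglia. Myelinating Schwann cell markers, of which 1 of 7 (Drp2) fell in WT and 0 in KO, summed to 4865 to 6942 CPM in WT IMQ ganglia, against 9169 to 14302 CPM in WT vehicle ganglia. In KO they summed to 4832 to 5305 CPM with IMQ, against 5970 to 7294 CPM with vehicle. The 3 WT vehicle libraries stood above the other 7 ganglia in these markers, as they did in Ccl28. The part of these lists in the change of Ccl28 or any other member was not tested.

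rPOSTN against control compared cultures with and without added periostin. The cultures also held fibroblast and macrophage genes and had Postn counts of their own, so a direct effect on neurons is not isolated. No member was called in either genotype, by edgeR or by DESeq2. Neither fit paired the cultures by number, so differences between pairs stay in the error and a paired change could be missed. In WT cultures 24 members were tested and 0% of 16639 genes were called, and in KO cultures 24 members were tested and 0% of 16756 genes were called. No member reached an unadjusted p under 0.05 in either genotype. For scale, 3.97% of all genes did in WT and 0.925% did in KO. In WT, 1 member was higher in every rPOSTN library (Ccr1) and 1 lower (Ccr10), where 5.01% and 4.64% of genes were, and in KO 0 members were either, where 2.58% and 2.8% of genes were. The medians over the members were -0.01 in WT and 0 in KO, next to 0 and 0.01 over all genes.

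Cxcl12 was the most counted ligand. It had 241, 247 and 192 CPM in WT rPOSTN cultures, against 234, 239 and 198 CPM in WT control cultures, a difference of 0.02 ± 0.11. In KO cultures it had 143, 155 and 190 CPM with rPOSTN, against 191, 165 and 181 CPM without it. Both genotypes overlapped between treatments. Ccl11 had 35.0, 40.0 and 36.9 CPM in WT rPOSTN cultures, against 37.6, 35.5 and 34.3 CPM in WT control cultures. In KO cultures it had 29.3, 12.7 and 63.2 CPM with rPOSTN, against 32.5, 21.5 and 63.5 CPM without it, so that number 3 was high in either treatment. Ccl2 followed that pattern, at 28.5, 24.4 and 50.5 CPM in KO rPOSTN cultures, against 28.4, 26.0 and 50.2 CPM in KO control cultures. The same 2 libraries were the ones high in fibroblast genes and in Postn, and the part of those cells in Ccl11 and Ccl2 was not tested.

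The members with the smallest unadjusted p were Ccl7 (-0.21 ± 0.10), Cxcr4 (0.27 ± 0.18) and Ccr10 (-0.35 ± 0.25) in WT, each with an edgeR adjusted p of 0.999. In KO they were Cxcl10 (0.51 ± 0.30), Ccl8 (0.63 ± 0.41) and Ccr10 (-0.63 ± 0.42), each with an edgeR adjusted p of 1.0. Without KO rPOSTN culture 2 the KO differences were 0.050 for Cxcl10 and -0.37 for Ccr10, and without KO rPOSTN culture 3 they were 0.43 for Ccl8 and -1.14 for Ccr10. Cxcl10 had 12.9, 32.8 and 18.1 CPM in KO rPOSTN cultures, against 14.8, 14.3 and 15.5 CPM in KO control cultures. KO rPOSTN culture 2 was also high in Cxcl1 (34.5 CPM), Cxcl2 (10.1 CPM) and Cxcr4 (9.17 CPM), and its control of the same number was at 12.6, 2.96 and 6.23 CPM for these genes. The difference of the rPOSTN effects between genotypes had 0 of 26 members called, with 0% of 17519 genes, and DESeq2 also called 0 members. At an unadjusted p under 0.05 there were 0 members and 1.95% of genes. Ccl8 (0.84 ± 0.53), Cxcl10 (0.41 ± 0.38) and Ccr1 (-0.61 ± 0.59) had the smallest p-values there. Leaving out both cultures numbered 3, an alternative added after seeing the data, called 0 members in either genotype, although it called 334 genes in WT.

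**Figure D4:**
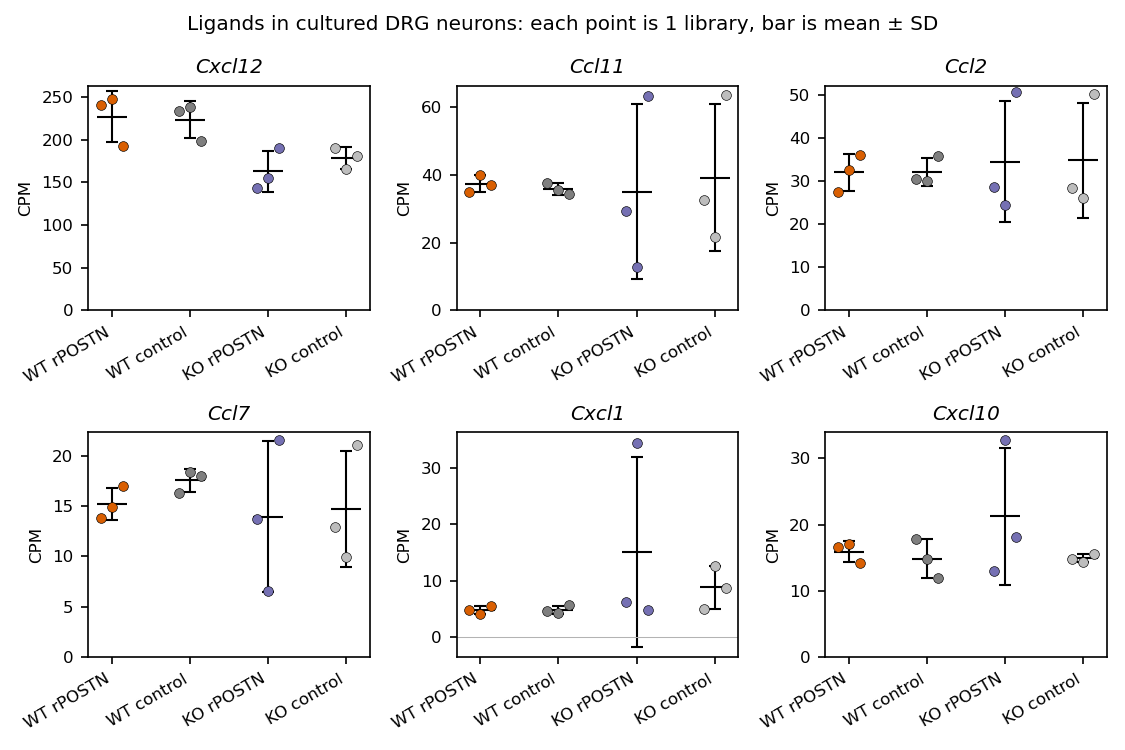
CPM of 6 ligands in cultures, with 1 point per library and bars for the mean ± SD (n = 3 a group). rPOSTN and control libraries overlap in each panel within both genotypes, and the 2 high points of Ccl11 and Ccl2 in KO are the cultures numbered 3.

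Cultured neurons and whole ganglia differ in tissue, in count table and in preparation, which cannot be told apart, so their levels are set side by side with no test. Of the 31 members that reached 1 CPM, 10 were higher in every culture library than in every ganglion library, where 30.5% of 16832 genes were, and 5 were lower in every culture library, where 21.6% of genes were. Members were thus higher in every culture about as often as all genes, and not more often lower. The 10 were all ligands, as were 24 of the 31: Ccl2, Ccl7, Ccl25, Cx3cl1, Cxcl1, Cxcl2, Cxcl5, Cxcl10, Cxcl12 and Cxcl14. Cxcl12 ran from 143 to 247 CPM with a median of 192 CPM in cultures, against 23.5 to 54.2 CPM with a median of 34.7 CPM in ganglia. Ccl2 ran from 24.4 to 50.5 CPM (median 30.1), against 2.84 to 6.44 CPM (median 4.92). Cxcl1, a neutrophil attractant, ran from 4.11 to 34.5 CPM (median 5.29), against 0.0508 to 0.468 CPM (median 0.246). Cxcl5, which also attracts neutrophils, ran from 0.860 to 3.69 CPM, against 0.05 to 0.303 CPM. Cx3cl1, which neurons make, ran from 14.6 to 24.5 CPM (median 18.7), against 3.78 to 6.61 CPM (median 4.59).

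The 5 lower members were Ackr3, Ccl6, Ccl12, Ccr2 and Cx3cr1. Ccr2 had 4 counts in 12 culture libraries and 1655 counts in 10 ganglion libraries. Cx3cr1 ran from 0.0538 to 0.665 CPM in cultures, against 5.50 to 32.7 CPM in ganglia. Macrophage markers summed to 180 to 322 CPM in cultures, against 233 to 316 CPM in KO vehicle ganglia and 236 to 293 CPM in WT vehicle ganglia, with none of the 16 at 0 in any group. Neutrophil markers summed to at most 3.98 CPM in cultures. The other 16 members overlapped. Among them, Ccl27a ran from 7.66 to 16.1 CPM in cultures, against 15.9 to 32.1 CPM in ganglia, and Cxcr4 from 2.57 to 9.17 CPM, against 7.21 to 12 CPM. Ccr10 ran from 0.814 to 2.49 CPM in cultures, against 0.232 to 0.971 CPM in ganglia.

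**Figure D5:**
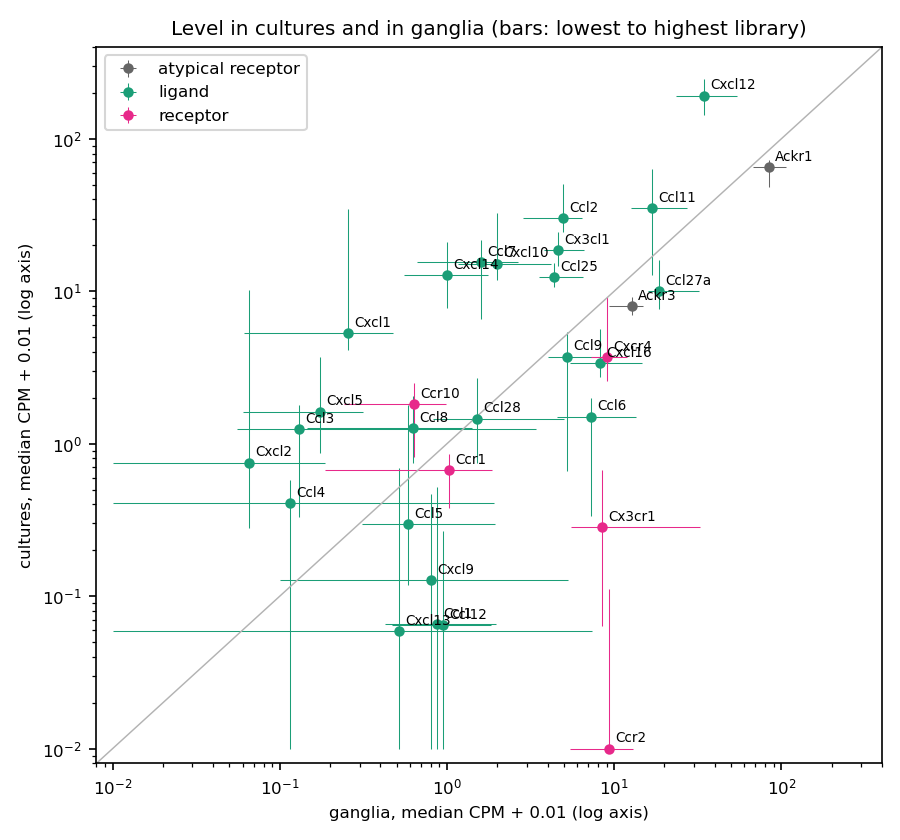
Median CPM + 0.01 in the 12 cultures against that in the 10 ganglia, on log axes, with bars from the lowest to the highest library and the diagonal marking equal levels. Cxcl12, Ccl2 and Cxcl1 lie above the diagonal and Ccr2 and Cx3cr1 below it.

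The windows before Cxcl1, Cxcl2 and Cxcl10 were picked because they hold the NF-kB motif, so the matches in them are no result. These ligands were also higher in every culture, and KO rPOSTN culture 2 was high in all 3. Ccl1, which has the motif too and reached 1 CPM, overlapped between cultures and ganglia and is not shown. The other ligands higher in every culture are not among the genes found with the motif. RefSeq gives 250 bases before each start on GRCm38.p6, at chr5:90890995-90891244 on the plus strand for Cxcl1, chr5:90903649-90903898 on the plus strand for Cxcl2 and chr5:92348890-92349139 on the minus strand for Cxcl10. Capitals mark matches to the NF-kB motif given above, and in Cxcl10 first a match to the interferon-stimulated response element.
Cxcl1: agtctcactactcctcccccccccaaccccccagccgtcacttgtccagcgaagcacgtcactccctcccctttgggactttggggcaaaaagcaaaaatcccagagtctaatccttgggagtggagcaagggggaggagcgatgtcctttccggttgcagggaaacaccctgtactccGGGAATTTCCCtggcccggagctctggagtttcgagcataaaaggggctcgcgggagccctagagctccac
Cxcl2: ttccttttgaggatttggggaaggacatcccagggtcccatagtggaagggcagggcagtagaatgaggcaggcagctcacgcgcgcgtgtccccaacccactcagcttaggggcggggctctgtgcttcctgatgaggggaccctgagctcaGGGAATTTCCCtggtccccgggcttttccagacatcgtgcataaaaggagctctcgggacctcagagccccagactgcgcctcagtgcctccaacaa
Cxcl10: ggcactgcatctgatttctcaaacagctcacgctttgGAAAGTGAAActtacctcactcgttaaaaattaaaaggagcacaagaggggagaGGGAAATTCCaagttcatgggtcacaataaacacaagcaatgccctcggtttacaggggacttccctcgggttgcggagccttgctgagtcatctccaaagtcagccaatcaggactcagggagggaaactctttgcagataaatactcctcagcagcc
In Cxcl1 and Cxcl2 the capitals hold overlapping matches on both strands, beginning 71 and 97 bases before the start. The NF-kB motif was found in 6 of 52 member windows (11.5%), those of Ccl1, Ccr3, Cxcl1, Cxcl2, Cxcl3 and Cxcl10, and in 1.21% of 32851 windows. The response element was found in 5.77% and 2.98%, GAGGAA in 30.8% and 23.3%, TTGCNNAA in 13.5% and 9.56%, and TATAAA in 26.9% and 12.4% of member windows and all windows, in that order. A match describes the letters and not a bound site.

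The 22 members counted under 1 CPM had 3 to 204 counts in all libraries together. They include receptors of lymphocytes (Ccr4, Ccr6, Ccr7, Cxcr3, Cxcr5), which guide T and B cells, and their ligands Ccl17, Ccl20 and Ccl22. Cxcr3 had 68 counts in 10 ganglia and 2 in 12 cultures, and Cxcr2 had 139 and 8. Xcl1, a ligand of cross-presenting dendritic cells, had 25 and 1, whereas its receptor Xcr1 had 34 and 45. Ackr2 and Ackr4, which clear inflammatory and homing chemokines, had 204 and 134 counts over all libraries.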

How the data were processed

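RNA was measured by poly-A, strand-specific (dUTP) sequencing, per the labels' protocols. The authors deposited 3 tables of raw whole-number counts, with genes as Ensembl IDs. GRCm39, TopHat2, Bowtie2 2.2.3 and HISAT2 2.1.0 appear in the submitters' processing notes with no role. Which tool made the counts, and with which strand setting, is not given in the sources used here. For Cxcl16, Cxcl10, Ccl25, Ccl27a and Cx3cr1, whose exons overlap genes on the opposite strand, counts are uncertain to that extent.

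Symbols came from GENCODE M21 on GRCm38, so no gene coordinates are printed, and sequences came from RefSeq on GRCm38.p6. Of 60 symbols, 45 had a promoter entry. The tests were two-sided and ran on R 4.3.3 with edgeR 4.0.16 (robust quasi-likelihood, filterByExpr, TMM), and DESeq2 1.42.0 was an alternative. Figures and sequence searches used Python 3.11.15. The 10 ganglia shared 1 fit, WT and KO cultures were fitted apart, and the 12 cultures together gave the difference of effects. Each SE was computed as |log2 fold change| divided by √F. Intervals and floors cover counting error only. The fits were tested on simulated data. Of the genes the symbol rule finds, 1 is not reported here and is left out of the members' counts, medians and sums.

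Members and lists were chosen with earlier results of these data known. Named with values are members called anywhere, those reaching 1 CPM and, in a comparison with no call, the 3 with the smallest p. Others named were chosen after their values were seen. Residuals of same-numbered libraries correlated at 0.872, 0.830 and 0.161 between KO and WT vehicle ganglia, at 0.377, 0.368 and 0.678 in WT cultures and at 0.390, 0.714 and 0.634 in KO cultures, so the numbers were taken to pair the samples in these 3 comparisons. The SEs and p-values given for them still come from fits with no block, so differences between pairs stay in that error. The block was run as an alternative. All these correlations are across genes.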

Additional observations from a re-analysis of the deposited data

How the results depend on the processing

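Scaling by DESeq2-type size factors left the counts of called members at 5 in WT and 1 in KO for IMQ. For WT, DESeq2 called 6 members, no filter on low counts 5, a fit of the 2 groups alone 5 (without Ccl28, with Ccl6) and the replicate block 5. Leaving out 1 library called 1 to 3. For KO, DESeq2 called 5, no filter 3 and the replicate block 2 (with Cxcl13, adjusted p = 0.00908), and leaving out 1 library called 1 to 4. Cxcl13 in WT had an adjusted p of 0.0777 with no filter, and Ccl28 one of 0.0684 with 2 groups alone. Leaving out a library leaves fewer samples, and for the other settings the cause was not tested. For IMQ, the share of all genes called under each alternative is not given here. The other 6 comparisons had 0 members called under every alternative run, and the block changed no other call. The IMQ comparisons, and that of KO against WT with IMQ, have 2 pairs each and were not taken as paired. Residual correlations were 0.237 and 0.223 in WT, 0.754 and 0.760 in KO, and 0.0503 for both pairs of KO against WT. The KO values were as high as some in comparisons taken as paired, so whether the KO numbers pair the samples is not settled. The genotype difference of the Cxcl10 rPOSTN effect was -0.047 without KO rPOSTN culture 2, against 0.41 with it, and 0.67 at most when another library was left out. Summed levels moved by less than 1 SD without TMM. With 2 treated libraries a genotype and few counts, a member that missed the threshold may still have changed. WT IMQ 2 had 141 CPM of Y-linked genes and the other ganglia at most 0.18 CPM, so sex and treatment are partly mixed in WT.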
